A study of Homo sapiens with 36 samples.

Results

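The data described here are the response to raised CO2 of THP-1 cells carrying a short hairpin RNA against NR4A2 (shNR4A2), in the basal state, that is without LPS. THP-1 is an established human monocytic leukaemia line that grows in suspension. The members were chosen from the sample titles alone: 3 libraries of shNR4A2 cells at 10% CO2 and 3 at 5% CO2, which are 6 of the 36 libraries of the study. All 36 came from THP-1 cells transduced with lentiviral particles, with a hairpin against NR4A2, one against NR4A3 (shNR4A3) or a non-target hairpin (shNT). Each line was held at 5% or 10% CO2 for 4 h in pH-buffered medium, and LPS, a bacterial cell wall component, was given to a matching set of libraries of each line at 2.5 µg/mL for the final 2 h. The sources used here do not say whether the shNR4A2 line is a clone or a pool, and they give 1 hairpin line for NR4A2, so an effect of that hairpin on other transcripts cannot be told apart from depletion of NR4A2.

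A monocyte is a circulating white cell of the innate immune system. Hypercapnia is an excess of CO2 in blood or tissue, as occurs in lung disease. CO2 crosses membranes and forms bicarbonate and protons, and buffering of the medium is used to separate an effect of CO2 from one of acid. NR4A1, NR4A2 and NR4A3 are orphan nuclear receptors, transcription factors that are induced within an hour or so of many stimuli. The mitochondrial genome is transcribed as long precursors from both strands and encodes core subunits of respiratory complexes I, III, IV and V, while the other subunits are encoded in the nucleus.

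NR4A2 was lower in the depleted line. At 5% CO2 it stood at 1.84, 1.67 and 2.34 CPM (counts scaled to library size, over all libraries together) in shNR4A2 replicates 1, 2 and 3, against 4.22, 2.96 and 3.91 in the shNT replicates. At 10% CO2 the values were 1.17, 1.09 and 1.44 in shNR4A2 cells and 2.54, 1.61 and 3.30 in shNT cells. The libraries of the 2 lines did not overlap at either CO2 level, and some NR4A2 RNA remained in each shNR4A2 library.

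The 6 libraries held 17092108 to 23929138 counts. Replicate 2 stood apart at both CO2 levels, with 23968 genes with a count at 5% and 23849 at 10%, against 28046 to 28930 in the other 4 libraries. Calls in most gene lists are therefore also given from fits without a replicate, though not always from each such fit. For the gene families chosen after values were seen, such counts were not made. All 22 monocyte markers on the list had counts, with a summed level of 9540 to 14380 TPM (counts scaled to gene length and library size) across the 6 libraries. CD14 had a mean of 45.4 TPM, ITGB2 of 627 and LYZ of 639, while CD163, a marker of differentiated macrophages, had 0.799. Summed markers of T and NK cells came to 47.1 to 61.0 TPM, those of B cells to 12.4 to 15.9, those of erythroid and megakaryocytic cells to 5.23 to 8.0 with 4 of 10 members at 0, and those of fibroblasts and epithelium to 2.35 to 3.17.

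The quasi-likelihood test of edgeR was run on 17720 genes, and a gene with a Benjamini-Hochberg adjusted p under 0.05 is called. The libraries with the same replicate number varied together at both CO2 levels, so the comparison was fitted without and with the replicate number as a block. Without the block 2 genes were called (0.0113% of those tested), and with it 361 (2.04%), of which 161 were higher (0.909%) and 200 lower (1.13%) at 10% CO2. The 2 were MT-ND4, higher, and MIR223HG, lower (0.00564% of genes in each direction), each with an adjusted p of 0.04996 without the block. All other adjusted p below are from the fit with the block, and none of those genes passed without it. Between the groups, the 3 libraries at 10% CO2 did not overlap the 3 at 5% for 283 of the 361 genes, where 13.9% of all genes tested did not. These were 129 of the higher and 154 of the lower genes, and over all genes the shares were 6.47% and 7.44%. The 361 were selected on these same libraries, so their separation follows in part from the selection and is not independent evidence. The changes were small: the median absolute log2 fold change of the 361 was 0.46, and 17 reached 1. Without replicate 1 the blocked fit called 18 of the 17720 genes, without replicate 2 it called 1376 and without replicate 3 it called 676. List counts from these fits are to be read against those totals. All 361 genes had the same sign in each of the 3 pairs, where 40.7% of all genes did. Leaving out 1 pair therefore could not change their sign. DESeq2 called 43 genes without the block (0.391% of the genes it gave an adjusted p), 41 of them among the 361, and 260 with it (2.08%). An exact permutation test of 3 libraries against 3, without pairing, gives a two-sided p of 0.1 at the least. Swapping CO2 only within the 3 pairs allows fewer arrangements, so its least p is higher. Each smaller p therefore rests on the model.

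**Figure D1:**
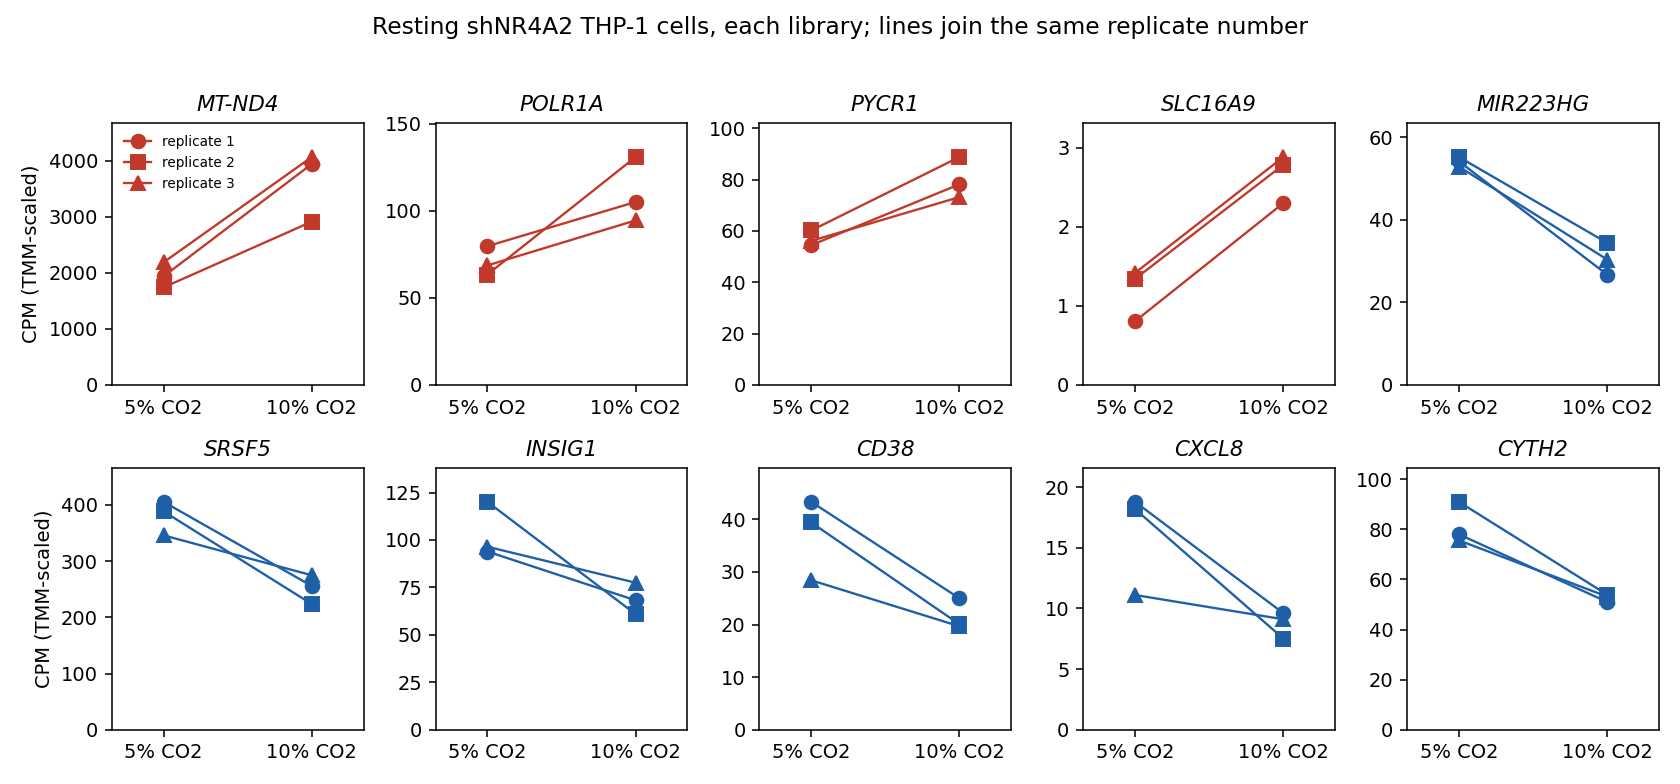
CPM (y axis, from 0, libraries scaled by TMM) of 10 genes at 5% and 10% CO2 (x axis) in resting shNR4A2 cells. Each point is 1 library, lines join libraries with the same replicate number, red marks genes higher and blue genes lower at 10% CO2, and in all 10 panels the 3 libraries at 10% CO2 lie beyond the 3 at 5%.

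Most protein-coding transcripts of mitochondrial DNA were higher at 10% CO2, while its transfer RNA genes were called in both directions. MT-TL1 (log2 fold change 0.443) and MT-TY (0.535) were called higher, and MT-TT (-0.847) and MT-TF (-0.554) lower. Of the 13 protein-coding mitochondrial genes, 11 were called higher (84.6%, against 2.04% of all genes called) and 0 lower. Their median log2 fold change was 0.55, while the median of all genes tested was 0.00. MT-ND4, MT-ND5 and MT-ND4L of complex I and all 3 subunits of complex IV are among the genes that the study picked from these libraries, so the count is not independent evidence of direction. MT-ND4, a core subunit of complex I (ENSG00000198886, GRCh38 mitochondrial genome from 10760 to 12137), was at 1939, 1742 and 2189 CPM in replicates 1, 2 and 3 at 5% CO2 and at 3946, 2916 and 4070 CPM at 10%. The lowest library at 10% was thus above the highest at 5%, and the smallest rise was in replicate 2. The log2 fold change was 0.89 (SE 0.08, adjusted p = 1.30e-04), a 1.85-fold rise. Without replicate 2 at both CO2 levels and without the block its adjusted p was 0.111.

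MT-ND4L, another complex I subunit, was at 291.8, 225.6 and 323.4 CPM at 5% CO2 and at 507.0, 379.4 and 565.2 at 10%. Its log2 fold change was 0.78 (SE 0.07, adjusted p = 1.01e-04), close to that of MT-ND4. The 2 genes are read in overlapping frames of the same strand and share 7 bases, which are shown because reads across them belong to both genes; the capitals mark the shared bases, in which the start codon of MT-ND4 (ATG) and the stop codon of MT-ND4L (TAA) lie. The stretch is chrM:10730-10796 of GRCh38, plus strand.

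MT-ND4L end and MT-ND4 start: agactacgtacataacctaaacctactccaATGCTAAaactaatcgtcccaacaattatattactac

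MT-CO1, the catalytic subunit of complex IV, was at 3754, 3031 and 3903 CPM at 5% CO2 and at 6524, 4542 and 6851 at 10%. It rose by a log2 fold change of 0.73 (SE 0.08, adjusted p = 0.00113). MT-CO3 rose by 0.63 (SE 0.08), MT-CO2 by 0.50 (SE 0.08) and MT-ND5 by 0.62 (SE 0.08), also with no overlap between the groups. MT-ND6, the only protein encoded on the other strand, rose by 0.63 (SE 0.09), MT-ATP6 by 0.55 (SE 0.08), MT-ATP8 by 0.53 (SE 0.08), MT-CYB of complex III by 0.45 (SE 0.08) and MT-ND2 by 0.34 (SE 0.08). In these 5 the replicate 2 library at 10% CO2 was below the highest library at 5%, and each pair rose on its own. With the strand setting of the counting not given, reads of MT-ND6 cannot be told apart from those of opposite-strand precursors.

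The 2 genes that were not called were MT-ND1, at 0.36 (SE 0.09, adjusted p = 0.0619), and MT-ND3, at 0.03 (SE 0.08, adjusted p = 0.906). In MT-ND3 pair 2 moved the other way, by -0.21, against 0.16 and 0.13 in pairs 1 and 3. Without replicate 2 the blocked fit called 11 of the 13 higher, without replicate 3 it called 8 and without replicate 1 it called 3, which were MT-ND4, MT-ND4L and MT-CO1. As a share of all counts, the mitochondrial genome took 1.76%, 1.48% and 1.92% at 5% CO2 and 2.81%, 2.09% and 2.99% at 10%. In bulk RNA, a larger share of cells with these transcripts and more of them in each cell cannot be told apart.

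**Figure D2:**
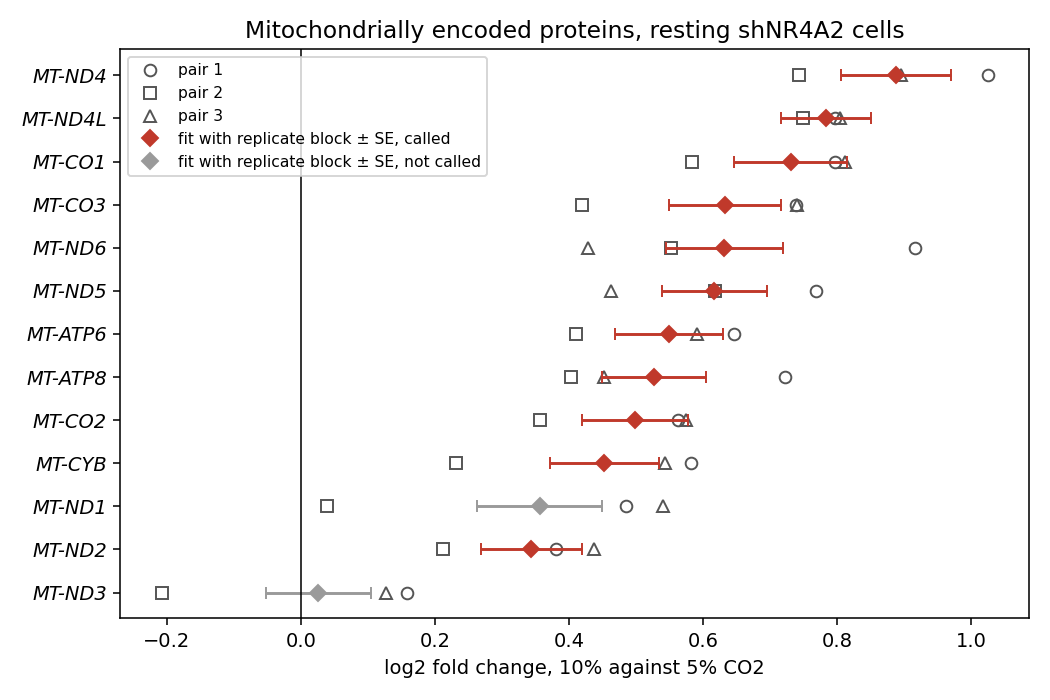
log2 fold change, 10% against 5% CO2 (x axis), of the 13 proteins encoded in mitochondrial DNA (y axis, ordered by size) in resting shNR4A2 cells. Diamonds are the fit with the replicate block and bars its SE, red where called; open symbols are the ratios within replicate pairs 1, 2 and 3, and 12 of the 13 genes are above 0 in each pair, with MT-ND3 below 0 in pair 2.

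The nuclear side of the same system moved little. None of 27 nuclear-encoded respiratory chain genes was called, with a median of 0.03 and 17 of 27 above 0. ATP5F1B, the catalytic subunit of ATP synthase and the member with the highest level per length, was at 662.5, 655.0 and 637.8 CPM at 5% CO2 and at 727.2, 669.1 and 680.2 at 10% (log2 fold change 0.09, SE 0.07, adjusted p = 0.571). Among 23 genes of mitochondrial DNA transcription and RNA handling, 1 was called (4.35%, against 2.04% of all genes). That gene was POLRMT, the mitochondrial RNA polymerase, at 82.95, 91.79 and 74.99 CPM at 5% CO2 and at 102.7, 122.6 and 90.20 at 10% (log2 fold change 0.33, SE 0.07, adjusted p = 0.0294). Its groups overlapped by 1 library, and it rose within each pair. The median of that list was 0.16, with pair medians of 0.14, 0.22 and 0.04. Without replicates 1, 2 and 3 in turn the blocked fit called 0, 2 and 4 of its members higher, and without replicate 2 also 1 lower.

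In a list of 32 genes of RNA polymerase I and ribosome biogenesis, 5 were called higher (15.6%, against 2.04% of all genes called) and 0 lower. Of the list, 25 of 32 were above 0, with a median of 0.13. POLR1A, the largest subunit of RNA polymerase I, which transcribes ribosomal RNA (ENSG00000068654, chromosome 2 from 86020216 to 86106155), was at 79.64, 63.36 and 68.62 CPM at 5% CO2 and at 105.0, 130.8 and 94.44 at 10%. Its log2 fold change was 0.63 (SE 0.11, adjusted p = 0.0150), with the largest rise in pair 2. RRP9, which binds the U3 small nucleolar RNA, was at 46.90, 46.35 and 38.54 CPM and then at 65.55, 70.63 and 58.17, with a log2 fold change of 0.56 (SE 0.08, adjusted p = 0.00443). MDN1, an ATPase that matures the large subunit, rose by 0.59 (SE 0.11), BOP1, also needed for the large subunit, by 0.43 (SE 0.07), and DPH5, an enzyme of diphthamide synthesis on elongation factor 2, by 0.71 (SE 0.14). BOP1 overlapped between the groups and the other 4 did not. POLR1A, RRP9 and DPH5 are genes that the study picked from these libraries, so their count is not independent evidence for the list. Without replicates 1, 2 and 3 in turn the blocked fit called 3, 6 and 7 of the 32 higher, and without replicate 2 also 1 lower.

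Amino acid enzymes and transporters included 3 called genes of 24 on a list of ATF4 targets and proline and one-carbon metabolism, all higher. That was 12.5%, against 2.04% of all genes, with 21 of 24 above 0 and a median of 0.13. PYCR1, which makes proline in mitochondria and is also named by the study, was at 54.49, 60.19 and 56.15 CPM at 5% CO2 and at 78.19, 88.82 and 73.21 at 10%, a log2 fold change of 0.49 (SE 0.08, adjusted p = 0.00706). PSPH, the last enzyme of serine synthesis, rose by 0.49 (SE 0.10) and SLC1A5, a glutamine transporter, by 0.32 (SE 0.07). Without replicate 1 none of the 24 was called, without replicate 2 there were 11 and without replicate 3 there were 2, all higher. ALDH1B1, a mitochondrial aldehyde dehydrogenase that the study names, rose from 78.41, 67.01 and 79.73 CPM to 107.4, 109.4 and 97.19 (log2 fold change 0.48, SE 0.08, adjusted p = 0.0133).

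Of 20 heat shock proteins and co-chaperones, 1 was called (5%, against 2.04% of all genes). It was HSPD1, the mitochondrial chaperonin, at 587.6, 477.6 and 602.5 CPM at 5% CO2 and at 733.5, 630.4 and 687.0 at 10% (log2 fold change 0.30, SE 0.07, adjusted p = 0.0421). Of the list, 14 of 20 were above 0 and the median was 0.22, with pair medians of 0.29, 0.31 and 0.01. The blocked fit called none without replicate 1, 6 higher without replicate 2 and 5 higher without replicate 3. Outside the list, and chosen after their values were seen, the HSP70 member HSPA6 rose by 0.85 (SE 0.18) and the HSP90 co-chaperones FKBP4 and AHSA1 by 0.53 (SE 0.09) and 0.40 (SE 0.08), while the co-chaperone DNAJB12 fell by 0.34 (SE 0.07). SERPINH1, a collagen chaperone also outside that list, was at 42.41, 49.30 and 59.82 CPM and then at 67.06, 83.67 and 73.55, a rise of 0.57 (SE 0.09, adjusted p = 0.00713).

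Transport and sensing of acid and bicarbonate moved in both directions. Of 29 genes tested, 2 were called higher and 1 lower (10.3% in all, against 2.04% of all genes), with a median of 0.01. Without replicate 1 none was called, without replicate 2 there were 4 higher and 3 lower, and without replicate 3 there were 2 higher and 2 lower. SLC16A9, a monocarboxylate transporter, was low and rose, from 0.806, 1.34 and 1.42 CPM to 2.30, 2.78 and 2.88 (log2 fold change 1.17, SE 0.24, adjusted p = 0.0251). SLC4A7, a sodium bicarbonate cotransporter, went from 5.43, 5.37 and 8.98 CPM to 9.25, 14.58 and 10.97 (log2 fold change 0.81, SE 0.18, adjusted p = 0.0406), and its lowest library at 10% CO2 was just above its highest at 5%. GPR132, a receptor of the proton-sensing family, fell by 0.41 on the log2 scale (SE 0.09, adjusted p = 0.0369), with overlap between the groups. Of the calcium genes, 1 of 24 was called higher and 2 lower (12.5% in all, against 2.04% of all genes). Without replicates 1, 2 and 3 in turn the blocked fit called 1, 2 and 1 higher, and 1, 3 and 2 lower. The lower genes, CD38 and ATP2A1, were picked by the study from these libraries, so their count is not independent evidence for the list. ITPR1, a calcium release channel of the endoplasmic reticulum, rose by 0.43 (SE 0.09). CD38, which makes the calcium messenger cyclic ADP-ribose and uses up NAD, fell from 43.30, 39.38 and 28.40 CPM to 24.97, 20.04 and 19.66 (log2 fold change -0.77, SE 0.10, adjusted p = 0.00366). ATP2A1, a calcium pump of the endoplasmic reticulum, fell from 6.57, 9.82 and 7.21 CPM to 3.81, 3.19 and 4.45 (log2 fold change -1.02, SE 0.19, adjusted p = 0.0150).

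**Figure D3:**
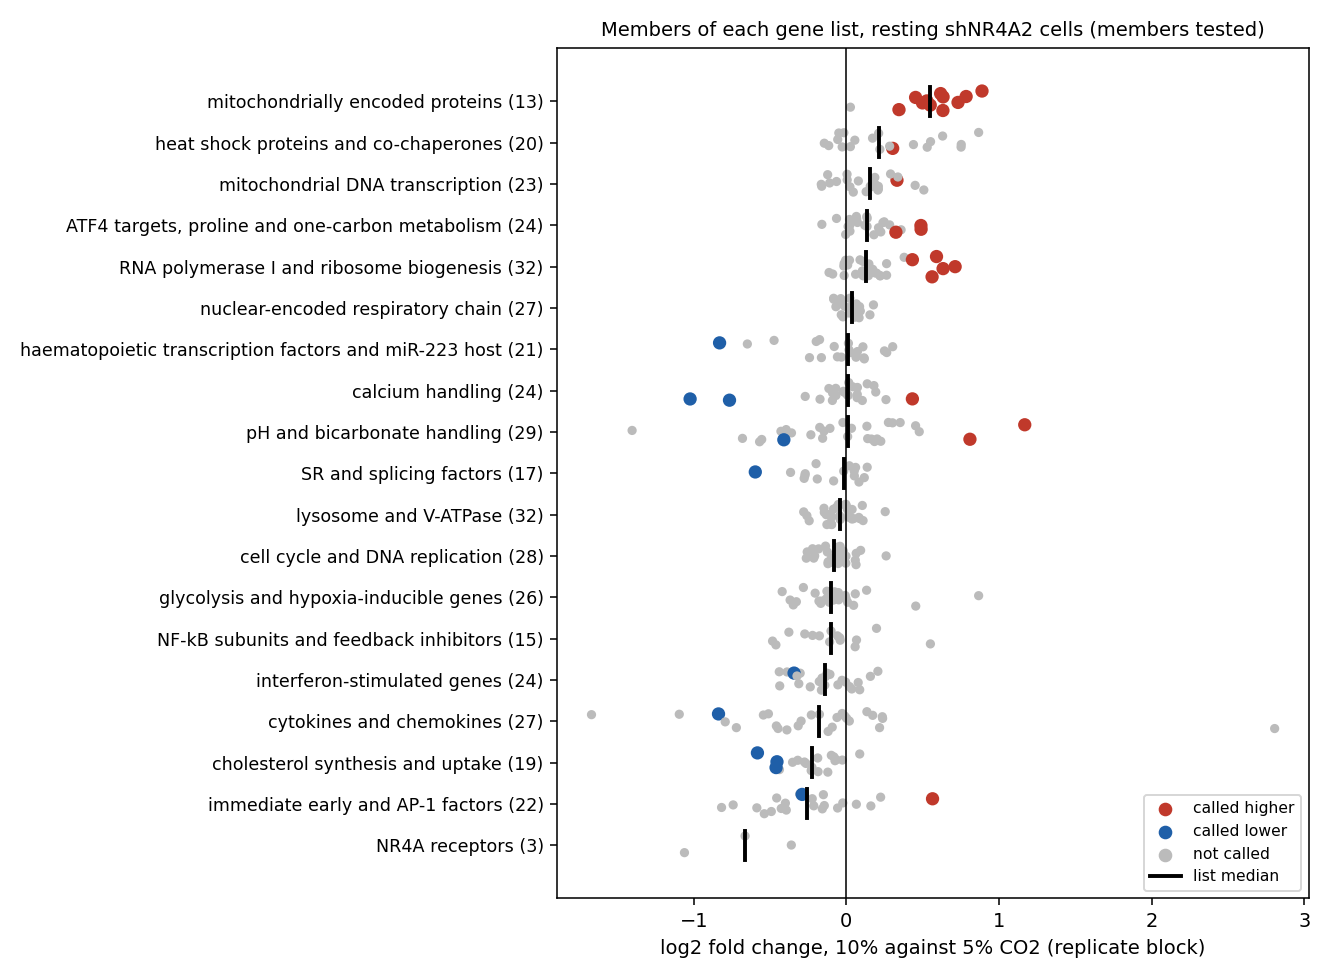
log2 fold change, 10% against 5% CO2 (x axis, fit with the replicate block), of every tested member of 19 gene lists (y axis, with the number tested) in resting shNR4A2 cells. Each dot is a gene, red where called higher and blue where called lower, black bars are list medians, and the mitochondrially encoded list has the highest median, with 11 of its 13 dots red.

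Of 19 genes of cholesterol synthesis and uptake tested, 3 were called lower (15.8%, against 2.04% of all genes called) and 0 higher. In that list 18 of 19 were below 0, and the median was -0.23. INSIG1, which retains the sterol sensor SCAP in the endoplasmic reticulum, fell from 93.93, 120.1 and 96.45 CPM to 68.21, 60.90 and 77.49 (log2 fold change -0.58, SE 0.11, adjusted p = 0.0194). HMGCS1, an early enzyme of the pathway, fell from 70.27, 75.21 and 70.97 CPM to 52.73, 48.48 and 56.77 (log2 fold change -0.46, SE 0.08, adjusted p = 0.0150). STARD4, a cholesterol carrier, fell from 23.07, 23.98 and 22.96 CPM to 15.72, 16.59 and 18.56 (log2 fold change -0.46, SE 0.10, adjusted p = 0.0355). In all 3 genes every library at 10% CO2 was below every library at 5%. The pair medians of the list were -0.21, -0.46 and -0.04, lowest in replicate 2. The blocked fit called none without replicate 1, 5 lower and 1 higher without replicate 2, and 7 lower without replicate 3.

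Of 27 cytokines and chemokines, 1 was called (3.70%, against 2.04% of all genes): CXCL8, the neutrophil chemokine interleukin-8, which fell from 18.79, 18.19 and 11.11 CPM to 9.62, 7.52 and 9.11 (log2 fold change -0.84, SE 0.16, adjusted p = 0.0203). TNF was at 25.66, 45.65 and 29.47 CPM at 5% CO2 and at 15.78, 10.82 and 19.79 at 10%, without overlap. It was not called by edgeR with the block (log2 fold change -1.09, SE 0.34, adjusted p = 0.218) or without it (adjusted p = 0.194), and DESeq2 without the block gave 0.00136. The pair ratios of TNF were -0.70, -2.07 and -0.57 on the log2 scale, so the fall in pair 2 was much the largest. The list medians in the pairs were -0.04, -0.57 and 0.00, and without replicates 1, 2 and 3 in turn the blocked fit called 0, 2 and 4 cytokines lower.

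Among 22 immediate early genes 2 were called (9.09%, against 2.04% of all genes). DUSP2, a MAP kinase phosphatase, was called higher (0.56, SE 0.13, adjusted p = 0.0419) and ZFP36, which speeds the decay of cytokine mRNA, lower (-0.29, SE 0.07, adjusted p = 0.0442). Here 18 of 22 were below 0, and the pair medians were -0.10, -0.56 and -0.05. The blocked fit called none without replicate 1, 1 higher and 2 lower without replicate 2, and 1 higher and 5 lower without replicate 3. None of the 15 NF-kB subunits and inhibitors on the list was called (median -0.10), against 2 lower without replicate 2 and 3 lower without replicate 3, and NFKBIA, the inhibitor IκBα, was at 81.33, 79.45 and 73.36 CPM and then at 70.39, 62.70 and 67.62 (log2 fold change -0.22, SE 0.08, adjusted p = 0.140). NFKBID, a nuclear IκB protein outside the list and chosen after its value was seen, was called lower (-0.79, SE 0.18, adjusted p = 0.0394). The NR4A genes were not called: NR4A1 had a log2 fold change of -0.36 (SE 0.12, adjusted p = 0.133), NR4A2 of -0.66 (SE 0.24, adjusted p = 0.159) and NR4A3 of -1.06 (SE 0.32, adjusted p = 0.0945).

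Of the 22 monocyte markers, 2 were called (9.09%, against 2.04% of all genes), both lower. ITGAX, the integrin CD11c, fell by 0.32 on the log2 scale (SE 0.07, adjusted p = 0.0398) and TLR4, the LPS receptor, by 0.44 (SE 0.10, adjusted p = 0.0437). Without replicate 1 none of the 22 was called, without replicate 2 there were 2 higher and 2 lower, and without replicate 3 there was 1 lower. None was called among 26 glycolytic and hypoxia-inducible genes (median -0.10), 32 lysosomal genes (-0.04) or 28 cell cycle genes (-0.08). Without replicate 2 the blocked fit called 2 glycolytic genes higher and 1 lower, 3 lysosomal genes higher and 2 cell cycle genes lower. The median of the glycolytic list was then 0.05, so its sign rested on replicate 2. Without replicate 3 it called 1 glycolytic gene higher and 2 lower, 1 lysosomal gene lower and 1 cell cycle gene lower. In the cell cycle list 23 of 28 were below 0, and MCM7, a subunit of the replicative helicase, was at 414.6, 518.9 and 404.0 CPM and then at 387.4, 403.0 and 350.7 (log2 fold change -0.22, SE 0.07, adjusted p = 0.121). SRSF5, an SR splicing factor that the study names, was the only one of 17 splicing genes called (5.88%). It fell from 405.4, 388.4 and 345.8 CPM to 255.8, 223.6 and 274.8, a log2 fold change of -0.60 (SE 0.08, adjusted p = 0.00443). Without replicate 2 the blocked fit called 6 splicing genes lower, and without replicate 1 none.

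MIR223HG is the host transcript of a microRNA that is characteristic of myeloid cells (ENSG00000274536, chromosome X from 66015461 to 66020422). It was at 54.15, 55.20 and 52.87 CPM at 5% CO2 and at 26.73, 34.42 and 30.38 at 10%, with a log2 fold change of -0.83 (SE 0.09, adjusted p = 8.56e-04). The 3 libraries at 5% CO2 lay within 3 CPM of each other, and each library at 10% was below them. MIR223HG was called with the block whichever replicate was left out. Without it, its adjusted p was 0.111 with replicate 2 left out at both CO2 levels. It was the only one of 21 genes called (4.76%, against 2.04% of all genes) on a list of haematopoietic transcription factors with this host. The median of that list was 0.01. Without replicate 2 the blocked fit called 3 of that list higher and 2 lower, and without replicate 3 it called 3 lower.

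After these values were seen, all tested genes named as microRNA hosts were taken. Of 34, 4 were called lower and 0 higher (11.8%, against 2.04% of all genes), and 20 of 34 were below 0, with a median of -0.34. Only 17 of the 34 averaged 1 CPM or more, and the pair medians were -0.36, -0.21 and -0.04. The median was -0.07 in resting shNT cells, -0.19 in resting shNR4A3 cells and 0.02 in LPS-treated shNR4A2 cells. The hosts thus did not fall as a class in each condition. MIR22HG fell from 8.61, 7.89 and 6.11 CPM to 4.29, 3.45 and 4.19 (log2 fold change -0.90, SE 0.17, adjusted p = 0.0169). MIR23AHG fell from 10.01, 11.21 and 8.45 CPM to 4.90, 7.47 and 4.83 (log2 fold change -0.80, SE 0.14, adjusted p = 0.0150). MIR142HG fell from 11.36, 14.91 and 9.51 CPM to 6.35, 11.08 and 5.25 (log2 fold change -0.69, SE 0.14, adjusted p = 0.0207), with overlap between the groups but a fall in each pair. The libraries were made from polyadenylated RNA, so they measure these hosts and not the mature microRNAs. The mature strands are shown because they are what the hosts carry. Each is the RefSeq sequence (GRCh38.p14), 5′ to 3′, with the seed, bases 2 to 8, in capitals. None of the 7 seeds is shared.

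hsa-miR-223-3p (MIR223HG, chrX:66018937-66018958, plus strand): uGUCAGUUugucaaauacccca
hsa-miR-22-3p (MIR22HG, chr17:1713914-1713935, minus strand): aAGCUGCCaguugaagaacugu
hsa-miR-142-3p (MIR142HG, chr17:58331245-58331267, minus strand): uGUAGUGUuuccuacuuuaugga
hsa-miR-142-5p (MIR142HG, chr17:58331283-58331303, minus strand): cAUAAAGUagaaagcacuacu
hsa-miR-24-3p (MIR23AHG, chr19:13836289-13836310, minus strand): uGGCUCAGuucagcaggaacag
hsa-miR-27a-3p (MIR23AHG cluster, chr19:13836447-13836467, minus strand): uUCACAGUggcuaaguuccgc
hsa-miR-23a-3p (MIR23AHG cluster, chr19:13836595-13836615, minus strand): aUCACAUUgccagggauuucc

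The miR-24-3p sequence lies within MIR23AHG as the files annotate it, and miR-27a-3p and miR-23a-3p lie just upstream of its annotated start.

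Among single genes with a symbol, a mean of 1 CPM or more and no overlap, the largest rises, beside those given above, were in transcripts of low level. LINC00638, a long noncoding RNA, rose from 1.91, 1.29 and 3.14 CPM to 5.20, 5.67 and 4.70 (log2 fold change 1.30, SE 0.25, adjusted p = 0.0197). HK2-DT, divergent to hexokinase 2, rose by 0.94 (SE 0.22), SPTBN5, a spectrin, by 0.91 (SE 0.19), FOXF2, a forkhead factor, by 0.90 (SE 0.21), the pseudogene ATE1OSP by 0.89 (SE 0.21), MANEAL by 0.85 (SE 0.17) and KAZN by 0.78 (SE 0.17). SERPINB2, the plasminogen activator inhibitor of monocytes, rose from 5.81, 7.56 and 8.41 CPM to 12.70, 14.68 and 11.19 (log2 fold change 0.82, SE 0.15, adjusted p = 0.0150). The strand setting of the counting is not given in the sources used here, so reads of HK2-DT, ATE1OSP and ADPGK-AS1 cannot be told apart from those of the genes on the opposite strand.

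The largest falls included CNTF, a neurotrophic cytokine, from 3.86, 3.17 and 2.26 CPM to 1.94, 1.08 and 0.805 (log2 fold change -1.31, SE 0.24, adjusted p = 0.0150). CNTF shares exons with the readthrough gene ZFP91-CNTF, so its counts are uncertain. PBX4, a homeobox factor, fell by 1.24 on the log2 scale (SE 0.24), RHBDL3, a rhomboid-like protein, by 1.22 (SE 0.23), FAM229A by 1.17 (SE 0.23), EGFL8 by 1.09 (SE 0.26), RFX8 by 1.08 (SE 0.16) and ADPGK-AS1 by 0.92 (SE 0.22). In immune genes, CLEC7A, the β-glucan receptor dectin-1, fell from 3.77, 3.11 and 3.54 CPM to 2.78, 0.773 and 1.40 (log2 fold change -1.15, SE 0.26, adjusted p = 0.0375). SERPINB9, the granzyme B inhibitor, fell by 1.10 (SE 0.25) and SOCS1, a brake on cytokine signalling, by 0.91 (SE 0.21).

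The study names 27 genes in resting cells, and 26 were tested. Of these 14 were called higher and 10 lower with the block. The study chose them on these and related libraries, so the count is not independent evidence. HPX was too low to be tested. CYTH2, an exchange factor for ARF GTPases, fell from 78.03, 90.99 and 75.61 CPM to 51.04, 53.94 and 53.17 (log2 fold change -0.62, SE 0.08, adjusted p = 0.00271). SLC6A6, the taurine transporter, fell by 0.67 (SE 0.09), DPP8, a dipeptidyl peptidase, by 0.54 (SE 0.08) and A4GALT, which makes the glycolipid globotriaosylceramide, by 0.80 (SE 0.16). The 2 that were not called were TNF, above, and WNT7B, a WNT ligand, at 41.98, 75.11 and 39.95 CPM and then at 25.88, 30.76 and 35 (log2 fold change -0.72, SE 0.18, adjusted p = 0.0839). Without replicate 1 the blocked fit called 8 of the 26, 5 higher and 3 lower, and without replicate 2 it called all 26.

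The RefSeq promoter windows (GRCh38.p14, from 250 bases before to 50 after a gene's start) were searched on both strands for an E-box (CACGTG, read by MYC and by the MiT and USF factors), an ATF4 element (TGATGNAA), a heat shock element (GAANNTTC), the ETS core (CCGGAA) and the CCAAT box (CCAAT). None of these motifs contains another. Of the 12 largest rises, 8 had a window: 2 held an E-box, 1 an ATF4 element, 1 a heat shock element, 2 an ETS core and 3 a CCAAT box. Of the 12 largest falls, 7 had a window: 4 held a CCAAT box and 0 any of the other 4 motifs. Over all genes with a window the shares were 8.77% for the E-box, 4.46% for the ATF4 element, 8.21% for the heat shock element, 20.1% for the ETS core and 39.7% for the CCAAT box.

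The search was widened to all called genes after these values were seen. Of the 161 genes called higher, 111 had a window, and 27 of these (24.3%) held an E-box. The share was 9.59% (14 of 146) among genes called lower and 12.1% among 12082 genes tested that had a window. The ETS core was in 35.1% of the higher, 27.4% of the lower and 32.6% of the tested genes, and the CCAAT box in 39.6%, 49.3% and 42.4%. In the ribosome biogenesis list 10 of 25 members with a window held an E-box, whether called or not. These are counts of letters, with no test, and no binding was measured. The windows of RRP9 and MDN1, of SLC1A5 and SLC16A9 and of HSPD1 are among the 27. The surroundings of the E-box in 3 of them are shown because these genes stand for separate groups above, with the E-box in capitals, on each gene's own strand.

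RRP9 (chr3:51941864-51941949, minus strand): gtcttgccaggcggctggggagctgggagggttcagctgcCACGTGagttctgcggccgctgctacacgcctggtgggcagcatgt
SLC1A5 (chr19:46787298-46787383, minus strand): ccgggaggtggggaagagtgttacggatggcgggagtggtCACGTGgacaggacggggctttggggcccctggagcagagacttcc
SLC16A9 (chr10:59710081-59710166, minus strand): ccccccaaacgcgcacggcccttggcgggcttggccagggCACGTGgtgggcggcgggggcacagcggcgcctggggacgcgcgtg

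The E-box starts 5 bases upstream of the start site in RRP9, 50 in SLC1A5 and 47 in SLC16A9.

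Whether this response differed from that of the other lines was asked next. The lines share no library, so their responses can be set side by side. All 361 genes had the same sign in resting shNT cells, where 73.0% of all genes did, and 355 (98.3%) had it in resting shNR4A3 cells, against 70.2% of all genes. The 161 higher genes had a median log2 fold change of 0.48 in shNR4A2 cells, 0.46 in shNT cells and 0.40 in shNR4A3 cells. For the 200 lower genes the medians were -0.44, -0.42 and -0.38. Since the 361 were selected in shNR4A2 cells, their size there is favoured. The genes called in resting shNR4A3 cells, which were not selected in either of the other lines, had medians of 0.53 in shNR4A3, 0.41 in shNR4A2 and 0.48 in shNT cells for the 99 higher, and of -0.49, -0.34 and -0.45 for the 101 lower. All 200 had the same sign in all 3 lines.

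The calls cannot be compared on equal terms, since the 361 come from a fit with the block and the calls in the other lines from fits without it, which gave 2 in resting shNR4A2 cells. Without the block 109 genes were called in resting shNT cells (0.615% of those tested) and 200 in resting shNR4A3 cells (1.13%). Of the 361, 62 (17.2%) were among those of shNT cells, which is 56.9% of the 109, and 83 (23.0%) were among those of shNR4A3 cells, or 41.5% of the 200. The difference in response was tested as an interaction of line and CO2. edgeR called 0 genes against shNT cells, where 192 had an unadjusted p under 0.05. It called 0 against shNR4A3 cells, where 209 did, and DESeq2 called 0 in both. The 192 and the 209 were each a smaller share of the genes tested than the 0.05 met with no difference. Neither count is therefore a sign of a difference. In simulated counts, the edgeR interaction test against shNT cells called 26% of genes given a 2-fold difference in response. It called 88% of those given a 4-fold difference and 2% of those given a 1.5-fold difference. Only 17 of the 361 genes themselves changed by 2-fold or more with CO2. Differences of the size of most changes here could thus be missed, so 0 calls do not show that the lines respond alike. Of the 361 genes, 3 had an unadjusted p under 0.05 against shNT cells and 6 against shNR4A3 cells. MT-ND4 rose by 0.96 in shNT cells and by 0.80 in shNR4A3 cells (adjusted interaction p of edgeR = 1 for both). MIR223HG fell by 0.68 and by 0.66 there (adjusted interaction p of edgeR = 1 for both). POLR1A rose by 0.47 and 0.54, and CD38 fell by 0.63 and 0.55.

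**Figure D4:**
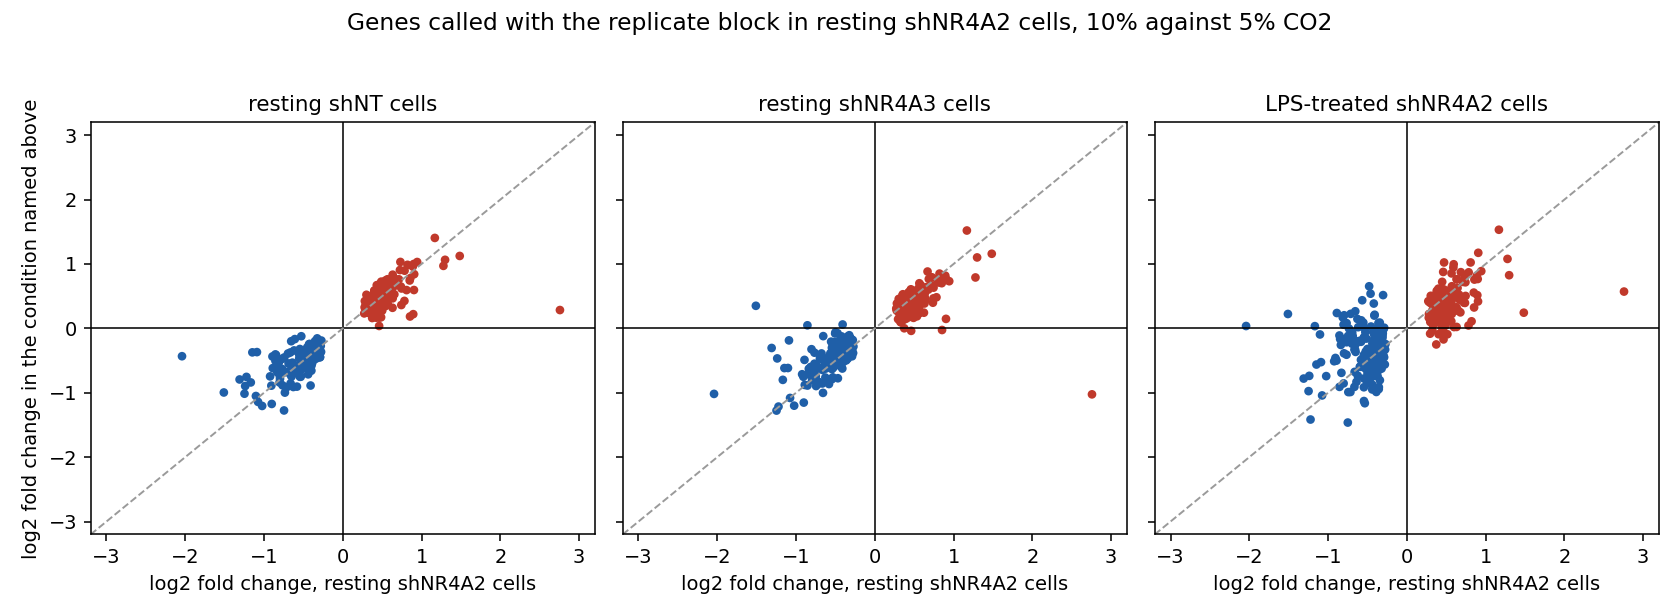
log2 fold change, 10% against 5% CO2, of the 361 genes called with the replicate block, in resting shNR4A2 cells (x axis) and in resting shNT, resting shNR4A3 and LPS-treated shNR4A2 cells (y axis of the 3 panels). Each point is a gene, red where higher and blue where lower in resting shNR4A2 cells, the dashed line marks equal change, and points off the quadrants of equal sign number 0, 6 and 35.

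The same CO2 comparison under LPS was the last. In LPS-treated shNR4A2 cells 326 of the 361 genes (90.3%) had the same sign, against 64.3% of all genes, with medians of 0.39 for the higher and -0.37 for the lower. In that state 35 genes were called without the block (0.198% of those tested), and 8 of them were among the 361. The interaction of LPS and CO2 gave 0 genes by edgeR, with 904 at an unadjusted p under 0.05 and 45 of them among the 361, and 13 by DESeq2. The smallest p were those of STARD4, which fell by 0.46 in resting cells and rose by 0.54 with LPS (unadjusted p = 1.09e-05, adjusted p = 0.194 by edgeR), SIK3, a salt-inducible kinase (-0.18 and 0.67, adjusted p = 0.279), and MCTP1, a calcium-binding membrane protein (-0.12 and 0.93, adjusted p = 0.295). The mitochondrial median was 0.55 at rest and 0.54 with LPS. MDN1 rose by 0.59 at rest and by 0.94 with LPS, SERPINB2 by 0.82 and 0.11, and CXCL8 fell by 0.84 and 0.26, none of which differed by the interaction after adjustment.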

How the data were processed

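Polyadenylated RNA of THP-1 cells was sequenced in 36 libraries (paired reads of 150 bases), of which 6 are described here. Per the labels and the study's methods, the authors used Trimmomatic 0.36 for trimming, STAR 2.5.2b for alignment to GRCh38 and featureCounts (Subread 1.5.2) for counts per gene. The deposited values are raw counts for 57500 genes, and the annotation release and strand setting are not given in the sources used here. Gene symbols and positions were taken from the files, and 56410 gene IDs (98.1%) matched the reference table. Groups and replicate numbers came from the sample titles. The study describes its data as from individual experiments. Without the block, p-values measure the spread between those experiments within 1 line. With the block, they measure the spread left after the replicate number is taken into account. No pair of files held identical values, and replicates of a group differed by more than counting noise.

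Genes were kept by filterByExpr over all 36 libraries (minimum count 10, minimum total 15), and 17720 were tested with edgeR 4.0.16 (TMM scaling, robust quasi-likelihood test, R 4.3.3, limma 3.58.1) between the 6 libraries. The study's methods used DESeq2, which was run here (1.42.0) as an alternative on the same counts. Log2 fold changes carry the SE of the model coefficient, CPM per library was scaled by TMM, and TPM used the gene lengths in the files. Whether the replicate number pairs libraries was tested from their deviations from the group means. Over all genes tested, libraries with equal numbers correlated at 0.309, 0.290 and 0.184, and over the 9529 genes that averaged 10 CPM or more at 0.615, 0.472 and 0.485; unequal pairs are then negative on average by construction. The number was therefore fitted as a block as well.

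The genes and lists, the E-box search and the gene families were chosen with earlier results of these data known. Named genes were those called without the block, the 12 largest changes in each direction among genes called with it that had a symbol, a mean of 1 CPM or more and no overlap, the called members of each list or else up to 4 of its members highest in TPM, the NR4A genes, the genes the study names, and the 3 genes with the smallest p in each interaction. Interactions of CO2 with line or LPS were fitted over 12 libraries each. Sequences are from RefSeq (GRCh38.p14) and, for the mitochondrial stretch, the GRCh38 genome, matched by symbol or miRNA name. The scripts were tested on simulated counts. The result of 1 gene list is not reported here.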

Additional observations from a re-analysis of the deposited data

Results flagged for a closer look

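In 7 comparisons of 2 conditions, every library moved one way with CO2 in resting shNR4A2 cells and every library the other way in the other condition. None of these differences passed the interaction test of edgeR after adjustment, and the values below for resting cells are from the fit without the block. STARD4, the cholesterol carrier, had a log2 fold change of -0.458 in resting shNR4A2 cells and of 0.538 with LPS (adjusted p = 0.194). Its levels at rest were 21.34, 22.00 and 20.94 CPM at 5% CO2 and 14.43, 15.22 and 16.99 at 10%, scaled over all libraries, and with LPS they were 91.95, 77.17 and 95.60 and then 119.8, 146.8 and 118.1.

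NR4A3, the nuclear receptor, had a log2 fold change of -1.044 in resting shNR4A2 cells, of 0.646 with LPS (adjusted p = 0.541) and of 1.039 in resting shNR4A3 cells (adjusted p = 1). In resting shNR4A3 cells its level was 0.270, 0.172 and 0.0525 CPM at 5% CO2 and 0.345, 0.313 and 0.367 at 10%, so that comparison rests on few counts. In resting shNT cells NR4A3 had a log2 fold change of -1.052, next to that in shNR4A2 cells. NR4A3 was not called in resting shNR4A2 cells in either fit.

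The other 4 were transcripts under 1.5 CPM in every library of the groups compared, each with an adjusted interaction p of 1 by edgeR. PGM5P2, a pseudogene, had a log2 fold change of -1.756 in resting shNR4A2 cells, opposite to shNT cells. LINC01270, a long noncoding RNA, had 0.434, also opposite to shNT cells. ENSG00000253330 had 2.748 and ASB14 had 0.671, both opposite to shNR4A3 cells.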

How the results depend on the processing

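The number of genes called in resting shNR4A2 cells depended on how the replicate spread was modelled. Without the block, edgeR called 2 genes, and also 2 with RLE size factors or with TMM factors computed without mitochondrial genes. It called 58 in 1 fit to all 36 libraries and 87 with no filter. It called 0 with library size only, with a filter at 1 CPM, with filterByExpr within the 6 libraries and at an adjusted p of 0.01, with 1281 to 1430 genes at an unadjusted p under 0.05. Leaving out 1 library at a time gave 0 to 8 genes, with 8 without replicate 3 at 5% CO2 and 1 without replicate 2 at 10%. Leaving out replicate 2 at both CO2 levels, an alternative chosen after the data were seen, gave 0, with 1372 at an unadjusted p under 0.05. DESeq2 called 43. With the replicate block edgeR called 361, and 363 with RLE size factors, 361 with TMM factors without mitochondrial genes, 335 with filterByExpr within the 6 libraries, 69 with library size only and 964 with no filter, and DESeq2 called 260. The blocked fit gave 18 without replicate 1, 1376 without replicate 2 and 676 without replicate 3. Without 1 library the adjusted p of the log2 fold change of MT-ND4 ranged from 0.0221 to 0.391 and that of the log2 fold change of MIR223HG from 0.0441 to 0.391, and neither changed direction under any alternative.

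The interactions of line and CO2 gave 0 genes under every alternative run. The interaction of LPS and CO2 gave 13 genes by DESeq2, 71 with no filter and 0 to 24 when 1 library was left out, the 24 without replicate 3 of LPS-treated shNR4A2 cells at 5% CO2. The replicate block gave 0 genes in each interaction, where 256, 525 and 1546 genes had an unadjusted p under 0.05, so it changed no call there. Some named genes with a change near 0 could change sign. ALDOA, at -0.051 with the block, had log2 ratios of 0.111, -0.37 and 0.103 in pairs 1, 2 and 3, so its direction rested on replicate 2. The cause of these changes was not tested.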

Other observations

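Gene families outside the lists above were counted after the values of single genes had been seen, so the counts below are descriptions, read against 2.04% of all genes called with the block. Metallothioneins, which bind zinc and copper, had 4 of 6 members called higher and 0 lower, with a median log2 fold change of 0.40. MT2A was at 20.86, 29.77 and 26.72 CPM in replicates 1, 2 and 3 at 5% CO2 and at 38.22, 41.78 and 36.06 at 10%, a log2 fold change of 0.59 (SE 0.10, adjusted p = 0.0133 by edgeR with the block), with no overlap. MT1X rose by 0.50, MT1G by 0.43 and MT1E by 0.37, and reads of these near-identical genes can be shared between them. The family's median was 0.49 in resting shNT cells and 0.28 in resting shNR4A3 cells.

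Mitochondrial ribosomal proteins, which are nuclear-encoded and translate the mitochondrial mRNAs, had 5 of 78 members called higher and 0 lower, with 68 above 0 and a median of 0.13. The largest were MRPS26, at 0.49, and MRPL34, at 0.44. The cytosolic ribosomal proteins had 0 of 96 called and a median of 0.01. Among mitochondrial solute carriers, 3 of 41 were called higher: SLC25A12, an aspartate-glutamate carrier, at 0.48, SLC25A22, a glutamate carrier, at 0.40 and SLC25A11, the oxoglutarate carrier, at 0.40. Nuclear copies of mitochondrial genes, whose reads cannot be told apart from those of the mitochondrial genome where the sequences are alike, had 3 of 7 called higher, with MTCO1P12 at 0.86.

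Of 9 Toll-like receptors 2 were called lower and 0 higher: TLR4 and TLR1, which was at 27.10, 19.69 and 18.58 CPM at 5% CO2 and at 16.45, 10.97 and 15.76 at 10% (log2 fold change -0.59). Semaphorins had 4 of 20 called lower, which were SEMA6A at -0.55, SEMA6B at -0.47, SEMA4C at -0.46 and SEMA4A at -0.35. Adhesion G protein-coupled receptors had 4 of 20 called lower, which were ADGRB1 at -0.61, ADGRE2 at -0.49, ADGRE5 at -0.37 and ADGRL2 at -0.30. In that family CELSR2, at 0.50, and CELSR1, at 0.38, were called higher, and no semaphorin was. Of the 14 members of the cholesterol list with a promoter window, 1 held a sterol regulatory element (TCACNCCAC), against 1.46% of tested genes. A CCAAT box was in 13 (92.9%), against 42.4% of tested genes. There was an E-box in 3 (21.4%, against 12.1%) and an ETS core in 4 (28.6%, against 32.6%). These too are counts of letters, with no test.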
